A study of Homo sapiens with 10 samples.

Results

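The genes described here are 10 of the 59386 genes counted in VCaP cells: *KLK2*, *KLK3*, *KLK4*, *TMPRSS2*, *FKBP5*, *STEAP4*, *SLC45A3*, *TRPM8*, *NDRG1* and *TGM4*. VCaP is a human prostate cancer cell line that responds to androgen and carries a fusion of *TMPRSS2* to *ERG*. The members were chosen by their measured change between knockdown and control libraries, so their values in those contrasts are given as a description and carry no test, and their calls are counted only to set them beside all genes. All 10 were found by symbol in the count files and all 10 passed the filter on low counts. Polyadenylated RNA was sequenced 72 h after transfection from 5 groups of 2 libraries each, so 10 libraries in all. The groups were control cells with the genotype WT, whose own transfection the labels do not describe, and cells transfected by Lipofectamine RNAiMAX with *SMARCA4* siRNA A or siRNA B, and cells with *SMARCA1* siRNA A or siRNA C. *SMARCA4* encodes the BRG1 ATPase of SWI/SNF chromatin remodelling complexes and *SMARCA1* encodes the SNF2L ATPase of ISWI complexes. The comparisons ask how loss of either remodeller changes gene expression in these cells. The labels do not say whether the 2 libraries of a group came from separate cultures. The tests therefore measure only the spread between the 2 libraries of a group, not that between the siRNAs of a target.

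In prostate epithelium, androgen signalling acts through response elements in DNA, together with pioneer factors such as FOXA1, and induces secreted proteases, transporters, channels and cochaperones. Several of these products are prostate-restricted, and *KLK3*, which encodes prostate-specific antigen, is the usual readout of androgen signalling. Some of the same genes also answer to other signals, since the glucocorticoid receptor binds the same class of response element and *NDRG1* is induced by low oxygen.

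The promoters of *KLK2*, *KLK3* and *TGM4* are shown because the first pair are neighbours with similar promoters but different count changes, and because *TGM4* changed most of the 10 genes. Windows from 250 bases before to 50 bases after the start were taken from RefSeq (GRCh38.p14), in which 8 of the 10 members matched. *TMPRSS2* and *NDRG1* did not. The *KLK2* window lies inside the span on which its counts were made (chr19:50861568-50880567), so its start is not the start of that span. For *KLK3* and *TGM4* the starts are the same. Each window is written 5′ to 3′ on the strand of its gene, all on the plus strand, and capitals mark AGAACA, the hexamer that pairs up to form an androgen response element.
KLK2 (chr19:50873189-50873488): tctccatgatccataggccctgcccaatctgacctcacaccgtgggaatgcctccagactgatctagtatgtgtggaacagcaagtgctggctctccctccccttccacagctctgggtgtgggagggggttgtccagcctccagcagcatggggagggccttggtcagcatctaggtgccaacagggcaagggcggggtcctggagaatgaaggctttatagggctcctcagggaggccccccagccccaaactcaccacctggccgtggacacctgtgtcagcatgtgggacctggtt
KLK3 (chr19:50854665-50854964): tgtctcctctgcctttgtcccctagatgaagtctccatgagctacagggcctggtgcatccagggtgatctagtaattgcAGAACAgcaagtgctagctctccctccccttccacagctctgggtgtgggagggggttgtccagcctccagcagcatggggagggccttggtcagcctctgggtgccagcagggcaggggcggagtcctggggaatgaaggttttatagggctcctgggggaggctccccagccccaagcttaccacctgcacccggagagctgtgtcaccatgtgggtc
TGM4 (chr3:44874358-44874657): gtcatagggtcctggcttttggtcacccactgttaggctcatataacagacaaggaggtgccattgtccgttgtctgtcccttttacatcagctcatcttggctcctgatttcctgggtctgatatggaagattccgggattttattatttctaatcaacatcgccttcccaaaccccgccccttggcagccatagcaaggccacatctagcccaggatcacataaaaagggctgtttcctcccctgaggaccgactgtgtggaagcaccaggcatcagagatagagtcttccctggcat
The hexamer, searched on both strands (its complement reads TGTTCT), was found 1 time in the *KLK3* window, starting at position -170 from the start, and not in the *KLK2* or *TGM4* windows. The 15 bases that begin there, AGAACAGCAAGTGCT, had a counterpart in the *KLK2* window at -176, GGAACAGCAAGTGCT, which differed by A1G, counted from 1 at the 5′ end with the *KLK3* base first. Of 35116 promoter windows, 7 (0.0199%) held a match to these 15 bases with at most 1 mismatch, on either strand. The *KLK2* and *KLK3* windows were identical at 78.5% of their aligned columns, against 48.5% for *KLK3* and *TGM4*. Over all members, 3 of the 8 matched genes had the hexamer in a window (*KLK3*, *FKBP5* and 1 alternative start of *TRPM8*), in 3 of 15 windows, beside 14.8% of all windows. The full palindrome, AGAACA and TGTTCT separated by 3 bases, was in none of these windows and in 0.00285% of all windows. A match is a description of letters in a window and no evidence of binding.

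Depth was 23898545 to 34667965 counts assigned to genes per library, at which 3 counts correspond to 0.0865 to 0.126 CPM (counts scaled to a library of equal size). CPM below are scaled by edgeR's TMM factors. *SMARCA4* was 242 and 268 CPM in the controls and 13.3 to 25.2 CPM in its 4 knockdown libraries, 7.87% of control. *SMARCA1* was 32.3 and 31.5 CPM in the controls and 1.75 to 3.40 CPM in its 4 knockdown libraries, 8.78% of control, and the *SMARCA4* knockdown libraries held 57.4 to 83.8 CPM of *SMARCA1*, 211% of control. All 7 luminal prostate markers were detected in every group (summed level 5050 to 5203 CPM in the controls). The summed level of 4 leukocyte markers was 0.520 to 0.795 CPM in the controls, 1.72 to 15.5 CPM with *SMARCA4* siRNAs and 8.08 to 22.5 CPM with *SMARCA1* siRNAs. Of these 4, *LYZ* alone, which encodes lysozyme, passed the filter, and it rose by 3.26 ± 0.73 and 4.63 ± 0.72 on the log2 scale. A gene this low in the controls can pass the filter through the knockdown libraries alone, so nothing is read from its rise. The sum of 3 endothelial markers was 1.80 to 2.64 CPM in the controls, 2.33 to 3.16 CPM with *SMARCA4* siRNAs and 1.59 to 2.52 CPM with *SMARCA1* siRNAs. The part of the leukocyte marker rise in the members' values was not tested. All 30 listed interferon response genes rose in both knockdowns: their summed level was 399 to 404 CPM in the controls, 16968 to 44669 CPM with *SMARCA4* siRNAs and 24166 to 46167 CPM with *SMARCA1* siRNAs. This rise moves with every difference between knockdown and control libraries reported here, and its part in them was not tested. Because all 4 siRNAs are set against the same 2 control libraries, an effect of either remodeller that both share and an effect of active siRNAs in general cannot be told apart.

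**Figure D1:**
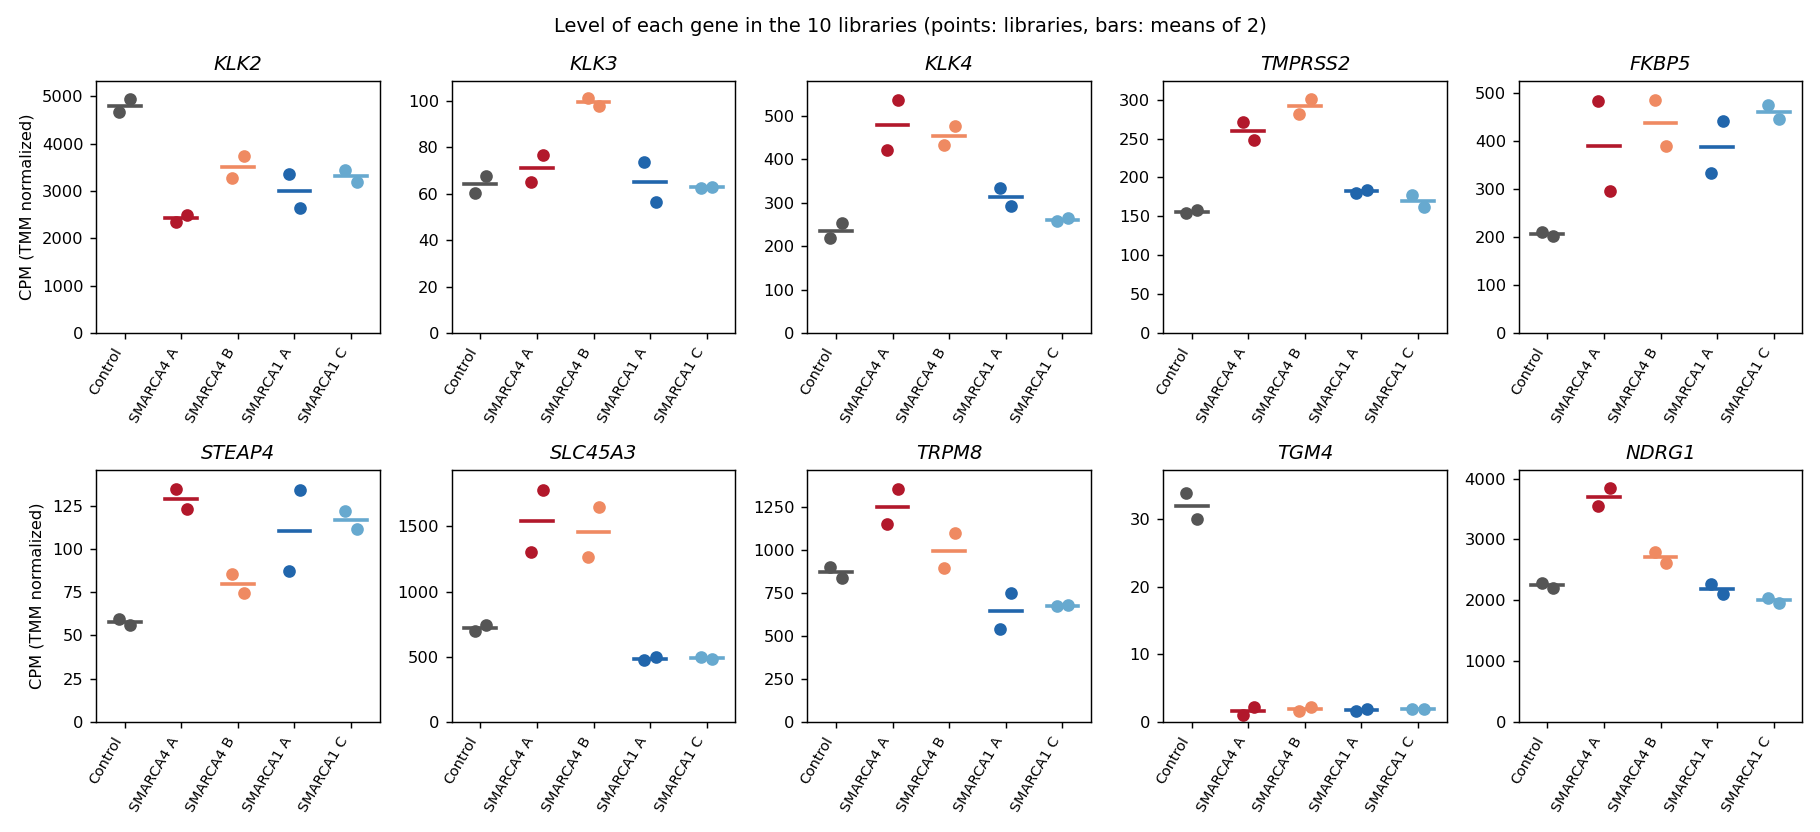
Level of each of the 10 genes in CPM (vertical axis, linear from 0, separate scale per gene) in the 2 libraries of each of the 5 groups (horizontal axis); points are libraries and bars the means of 2. *TGM4* is near the axis in all 8 knockdown libraries, *FKBP5* and *STEAP4* are above control in all 8, and *SLC45A3* is above control with *SMARCA4* siRNAs and below it with *SMARCA1* siRNAs.

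The members fell into 3 patterns. *TGM4* and *KLK2* were lower in all 8 knockdown libraries than in either control, and *FKBP5* and *STEAP4* were higher in all 8. *SLC45A3*, *TRPM8* and *NDRG1* were separated by target, with every *SMARCA4* knockdown library above every *SMARCA1* knockdown library, and so were *KLK4* and *TMPRSS2*, which were above both controls in all 8. *KLK3* was the member whose knockdown libraries overlapped control with both targets. How many of all tested genes separated in these ways was not counted, so nothing is read from the separations. At an adjusted p below 0.05 (edgeR's quasi-likelihood test, Benjamini-Hochberg adjusted over 16899 genes), *SMARCA4* knockdown had 7 members called higher, where 22.8% of all tested genes were, and 2 called lower, where 22.3% were. *SMARCA1* knockdown had 2 called higher, beside 23.8% of all genes, and 4 called lower, beside 23.0%. These counts follow from how the members were selected and nothing is read from them. Without control replicate 1 or without control replicate 2, the *SMARCA1* knockdown count of lower members was 2.

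Per kilobase of exon, the controls ordered the genes as *KLK2* at 756 RPKM (CPM divided by exon kilobases), *SLC45A3* at 192, *NDRG1* at 187, *KLK4* at 121, *TRPM8* at 110, *TMPRSS2* at 23.7, *FKBP5* at 19.4, *KLK3* at 13.8, *TGM4* at 5.87 and *STEAP4* at 5.12 RPKM. The 2 control libraries of *SLC45A3* and *NDRG1* overlapped, as did those of *KLK4* and *TRPM8*, and the other neighbours in this order did not. *KLK2* stood above 99.9% of tested genes and *STEAP4* above 60.5%.

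*TGM4* (ENSG00000163810, chr3:44874608-44914990, plus strand, GRCh38) encodes the prostate transglutaminase, a secreted enzyme that cross-links proteins of the seminal fluid. It was 33.9 and 30.0 CPM in the controls, from 810 and 807 counts. With *SMARCA4* siRNA A it was 0.943 and 2.11 CPM and with siRNA B 1.61 and 2.25 CPM. With *SMARCA1* siRNA A it was 1.55 and 1.91 CPM and with siRNA C 1.92 and 1.83 CPM. All 8 knockdown libraries were far below both controls and overlapped each other between the targets. The knockdown libraries still held 27 to 67 counts of *TGM4*, above the 3 counts set here as the detection floor. The difference was -4.21 ± 0.22 (log2, SE, n = 4 against 2), or 18.5-fold lower, with *SMARCA4* siRNAs and -4.15 ± 0.22, or 17.7-fold lower, with *SMARCA1* siRNAs. Single siRNAs ranged from -4.37 ± 0.30 (*SMARCA4* siRNA A) to -4.05 ± 0.29 (*SMARCA4* siRNA B). No 50-base stretch of its transcripts was shared with another gene.

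The knockdowns were compared directly without the control libraries. This contrast is the difference between the *SMARCA4* and the *SMARCA1* contrast with control, on which the members were chosen. Its p-values for the members are therefore no independent evidence. *TGM4* differed between the knockdowns by -0.07 (95% interval -0.57 to 0.44) on the log2 scale. A difference of the size of either end of this interval could not be told from none. Other transglutaminases did not follow it. *TGM2*, the widely expressed tissue transglutaminase, rose from 50.3 and 52.6 CPM to 113 to 186 CPM with *SMARCA4* siRNAs (2.82-fold, adjusted p = 0.000123, edgeR's quasi-likelihood test, Benjamini-Hochberg adjusted) and to 131 to 294 CPM with *SMARCA1* siRNAs (4.06-fold, adjusted p = 4.48e-05). *TGM1*, the keratinocyte transglutaminase, rose with *SMARCA1* siRNAs (3.06 ± 0.40, adjusted p = 0.000276) from 0.418 and 0.483 CPM to 1.83 to 6.72 CPM. The genes whose log2 levels followed *TGM4* most closely over the 10 libraries, among 13645 compared, were *RGS5* (Pearson r = 0.988), *FADS1* (r = 0.985) and *DLEU1* (r = 0.976). The libraries fall into control and knockdown clusters, so these correlations mainly describe that split. *FADS1*, a fatty acid desaturase, had mean levels of 270 CPM in control, 160.0 CPM with *SMARCA4* siRNAs and 157 CPM with *SMARCA1* siRNAs.

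The 3 kallikreins among the members are secreted serine proteases encoded within a single cluster, at chr19:50854915-50860764 (*KLK3*, ENSG00000142515, plus strand), chr19:50861568-50880567 (*KLK2*, ENSG00000167751, plus strand) and chr19:50906352-50910738 (*KLK4*, ENSG00000167749, minus strand). They did not move as a block. *KLK2* was 4666 and 4941 CPM in the controls, 2343 and 2498 CPM with *SMARCA4* siRNA A, 3273 and 3740 CPM with siRNA B, 3352 and 2646 CPM with *SMARCA1* siRNA A, and 3438 and 3197 CPM with siRNA C. All 8 knockdown libraries lay below both controls, at -0.72 ± 0.11 (log2, SE) with *SMARCA4* and -0.61 ± 0.11 with *SMARCA1* siRNAs. Between the targets the difference was -0.11 (95% interval -0.32 to 0.09, adjusted p = 0.365, edgeR's quasi-likelihood test, Benjamini-Hochberg adjusted).

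*KLK3* was 60.4 and 67.7 CPM in the controls, 65.2 and 76.7 CPM with *SMARCA4* siRNA A, 101 and 97.8 CPM with siRNA B, 73.5 and 56.4 CPM with *SMARCA1* siRNA A, and 62.6 and 62.9 CPM with siRNA C. Only the siRNA B libraries stood clear of all the other groups. Against control the difference was 0.39 ± 0.12 with *SMARCA4* siRNAs, of which siRNA A gave 0.15 ± 0.14 and siRNA B 0.63 ± 0.14, and -0.01 ± 0.12 with *SMARCA1* siRNAs. *KLK3* was 0.40 higher in *SMARCA4* than in *SMARCA1* knockdown (95% interval 0.17 to 0.62, adjusted p = 0.0126, edgeR's quasi-likelihood test, Benjamini-Hochberg adjusted), and leaving out replicate 1 of *SMARCA1* siRNA C ended this call (0.40, adjusted p = 0.0543). When single libraries were omitted, the *SMARCA4* difference from control ranged from 0.35 to 0.51.

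*KLK4* was 217 and 252 CPM in the controls, 421, 536, 432 and 476 CPM with *SMARCA4* siRNAs, and 333, 292, 258 and 263 CPM with *SMARCA1* siRNAs. The 3 groups did not overlap, with *SMARCA4* knockdown highest. The difference from control was 0.99 ± 0.13 with *SMARCA4* and 0.28 ± 0.12 with *SMARCA1* siRNAs, and *SMARCA4* knockdown was 0.71 higher than *SMARCA1* knockdown (95% interval 0.49 to 0.93, adjusted p = 0.000671, edgeR's quasi-likelihood test, Benjamini-Hochberg adjusted). When single libraries were omitted, the *SMARCA1* difference from control ranged from 0.21 to 0.41.

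The balance of the 3 proteases differed between the groups. Per length, the controls held 56.4 and 53.3 times as much *KLK2* as *KLK3*, the *SMARCA4* knockdown libraries 23.6 to 27.9 times, and the *SMARCA1* knockdown libraries 33.3 to 40.1 times. The ratio of *KLK2* to *KLK4* was 6.54 and 5.97 in the controls, 1.42 to 2.39 with *SMARCA4* siRNAs and 2.76 to 4.06 with *SMARCA1* siRNAs. Neither of these ratios overlapped between the 3 groups. The ratio of *KLK3* to *KLK4* was 0.116 and 0.112 in the controls. It was 0.0597 to 0.0977 with *SMARCA4* siRNAs and 0.0805 to 0.101 with *SMARCA1* siRNAs, which overlapped. The share of all gene pairs that separate by group was not counted, so nothing is read from the separations. Sharing of sequence was small, since 31 of 6861 50-base stretches (0.452%) of *KLK2* and 11 of 5074 (0.217%) of *KLK3* also occurred in another gene. Of the 13 other genes of the cluster, including the pseudogene *KLKP1*, 5 passed the filter and 2 had no count in any library. Of these 5, 1 was called higher with *SMARCA4* siRNAs (20%, beside 22.8% of all genes). With *SMARCA1* siRNAs 3 were called higher (60%, beside 23.8% of all genes), and 0 were called lower with either target. Among these 5, *KLK1* held 1 to 29 counts per library and *KLK10* 0 to 60. The filter can keep genes this low through a group where they are high, so nothing is read from these shares. *KLK15*, next to *KLK3*, was 4.76 and 5.31 CPM in the controls and 3.99 to 7.51 CPM in the knockdown libraries. *KLK14* rose with *SMARCA1* siRNAs (2.62 ± 0.40, adjusted p = 0.000631, edgeR's quasi-likelihood test, Benjamini-Hochberg adjusted), from 0.376 and 0.483 CPM to 1.22 to 4.03 CPM.

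**Figure D2:**
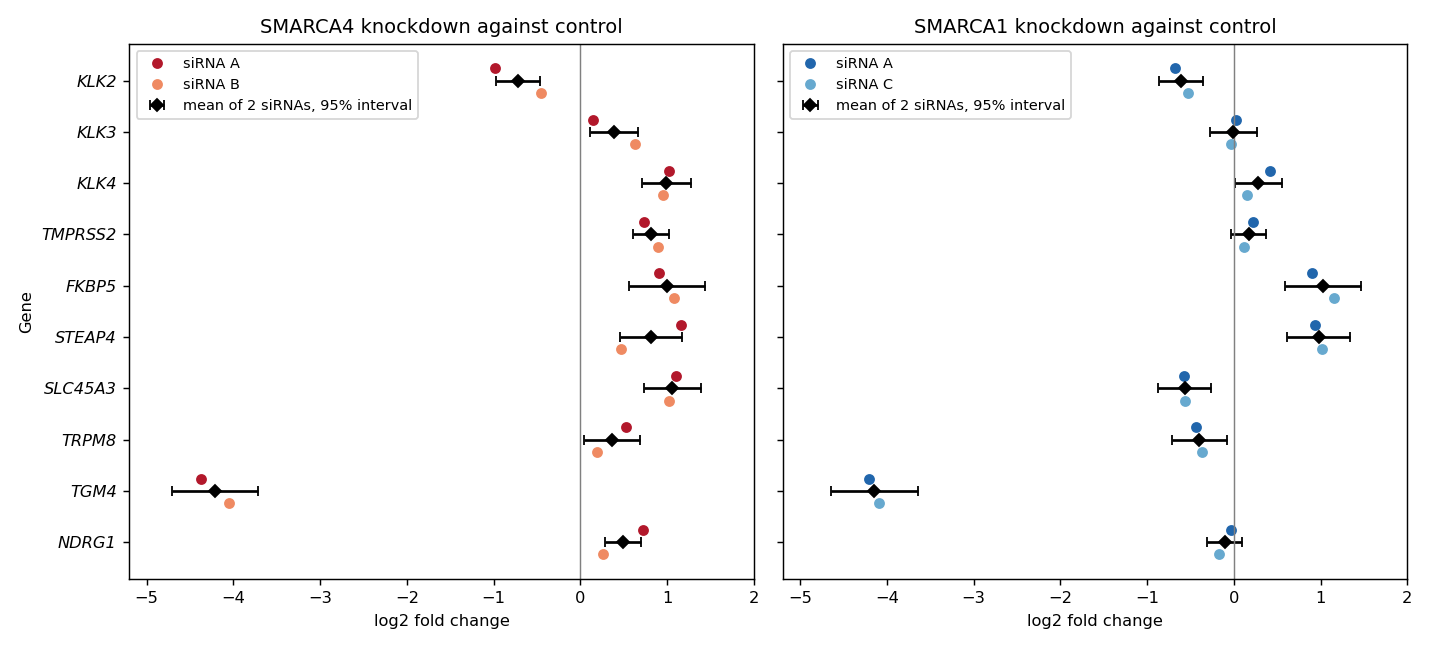
Log2 fold change against control (horizontal axis) of each gene for *SMARCA4* (left) and *SMARCA1* knockdown (right); black diamonds are the mean of both siRNAs with the 95% interval of edgeR's quasi-likelihood fit, and coloured points are single siRNAs. *TGM4* lies near -4 in both panels, while *SLC45A3* is at 1.06 on the left and -0.57 on the right.

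*TMPRSS2* (ENSG00000184012, chr21:41464300-41531116, minus strand) encodes a membrane-anchored serine protease, and its androgen-driven promoter drives *ERG* from the fused allele in VCaP cells. It was 154 and 159 CPM in the controls, 271, 248, 281 and 301 CPM with *SMARCA4* siRNAs, and 180, 184, 177 and 162 CPM with *SMARCA1* siRNAs. The *SMARCA4* knockdown libraries were the highest and did not overlap the others. The difference from control was 0.82 ± 0.09 with *SMARCA4* and 0.17 ± 0.09 with *SMARCA1* siRNAs. *SMARCA4* knockdown was 0.65 higher than *SMARCA1* knockdown (95% interval 0.48 to 0.81, adjusted p = 0.000245, edgeR's quasi-likelihood test, Benjamini-Hochberg adjusted). *ERG* did not share the higher level: it was 395 and 388 CPM in the controls, 254 to 463 CPM with *SMARCA4* siRNAs (log2 -0.16 ± 0.14, adjusted p = 0.364, edgeR) and 239 to 348 CPM with *SMARCA1* siRNAs, where it fell by 0.49 ± 0.14 (adjusted p = 0.0155, edgeR). *TMPRSS2* shares 562 exon bases, 8.53% of its exons, with the interferon-induced *MX1* on the opposite strand, and *MX1* went from 9.58 and 10.4 CPM in the controls to 2326 to 5525 CPM with *SMARCA4* and 3347 to 6019 CPM with *SMARCA1* siRNAs. *MX1* differed between the knockdowns by -0.14 (adjusted p = 0.512, edgeR). Whether the counting separated the strands is not given in the sources used here, and the part of *MX1* reads in the *TMPRSS2* values was not tested.

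*SLC45A3* (ENSG00000158715, chr1:205657851-205680509, minus strand) encodes prostein, a membrane transporter largely restricted to the prostate. It was 699.8 and 741 CPM in the controls, 1306, 1778, 1267 and 1651 CPM with *SMARCA4* siRNAs, and 474, 496, 498 and 479 CPM with *SMARCA1* siRNAs. The 3 groups did not overlap, and control lay between the knockdowns. Relative to control the change was 1.06 ± 0.15 with *SMARCA4* and -0.57 ± 0.14 with *SMARCA1* siRNAs. The direct difference of 1.62 (95% interval 1.36 to 1.89, adjusted p = 3.51e-05, edgeR's quasi-likelihood test, Benjamini-Hochberg adjusted), or 3.08-fold, was the largest of the 10 members. When single libraries were omitted, the *SMARCA1* difference from control ranged from -0.58 to -0.51.

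*TRPM8* (ENSG00000144481, chr2:233917373-234019522, plus strand) encodes a cold- and menthol-gated cation channel whose expression in prostate depends on androgen. It was 904 and 838 CPM in the controls, 1151 and 1359 CPM with *SMARCA4* siRNA A, 898 and 1099 CPM with siRNA B, 540 and 752 CPM with *SMARCA1* siRNA A, and 673 and 681 CPM with siRNA C. The first library of *SMARCA4* siRNA B lay within the control range, and all 4 *SMARCA1* knockdown libraries lay below control. Relative to control the change was 0.36 ± 0.15 with *SMARCA4* and -0.40 ± 0.14 with *SMARCA1* siRNAs. When single libraries were omitted, these ranged from 0.32 to 0.48 and from -0.50 to -0.29. The direct difference between the knockdowns, 0.76 (95% interval 0.50 to 1.02, adjusted p = 0.00112, edgeR's quasi-likelihood test, Benjamini-Hochberg adjusted), was called with each library left out.

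*STEAP4* (ENSG00000127954, chr7:88270892-88306894, minus strand) encodes a membrane metalloreductase that is induced by androgen and by inflammatory signals. It was 59.4 and 55.8 CPM in the controls, 135 and 123 CPM with *SMARCA4* siRNA A, 85.6 and 74.3 CPM with siRNA B, 87.1 and 134 CPM with *SMARCA1* siRNA A, and 122 and 111 CPM with siRNA C. All 8 knockdown libraries were above both controls, and the 2 siRNAs against *SMARCA4* did not overlap. Relative to control the change was 0.82 ± 0.16 with *SMARCA4* and 0.98 ± 0.16 with *SMARCA1* siRNAs. Between the targets it was -0.16 (95% interval -0.44 to 0.12, adjusted p = 0.341, edgeR's quasi-likelihood test, Benjamini-Hochberg adjusted), and without *SMARCA1* siRNA A replicate 1 it became called at -0.29 (adjusted p = 0.0123). Its exons share 782 bases (6.95%) with AC003991.3 on the opposite strand. Of its family, *STEAP3* went the other way with both targets, and *STEAP1* and *STEAP2* with *SMARCA1* siRNAs. With *SMARCA4* siRNAs *STEAP1* and *STEAP2* were not called lower. *STEAP3* fell by 1.55 ± 0.12 with *SMARCA4* siRNAs (adjusted p = 1.29e-05, edgeR) and by 0.98 ± 0.12 with *SMARCA1* siRNAs (adjusted p = 0.000187, edgeR). With *SMARCA1* siRNAs *STEAP1* fell by 1.09 ± 0.13 (adjusted p = 0.000208, edgeR) and *STEAP2* fell by 1.32 ± 0.26 (adjusted p = 0.00236, edgeR). The genes closest to *STEAP4* in pattern were *ERRFI1* (r = 0.972), *CLDN1* (r = 0.966) and *LRATD1* (r = 0.960), over 10 libraries in which control and knockdown again form separate clusters.

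*FKBP5* (ENSG00000096060, chr6:35573585-35728583, minus strand) encodes the HSP90 cochaperone FKBP51, which acts on steroid receptors and is induced by androgens and by glucocorticoids. It was 211 and 203 CPM in the controls, 482 and 295 CPM with *SMARCA4* siRNA A, 485 and 389 CPM with siRNA B, 333 and 442 CPM with *SMARCA1* siRNA A, and 474 and 445 CPM with siRNA C. All 8 knockdown libraries were above both controls, and the targets overlapped. The difference from control was 1.00 ± 0.20 with *SMARCA4* and 1.03 ± 0.20 with *SMARCA1* siRNAs, and between the targets it was -0.03 (95% interval -0.37 to 0.31). *FKBP4*, its paralog in the same receptor complexes, fell with both (-0.81 ± 0.10 with *SMARCA4*, adjusted p = 0.000171, and -0.48 ± 0.10 with *SMARCA1* siRNAs, adjusted p = 0.00378, edgeR's quasi-likelihood test, Benjamini-Hochberg adjusted). *NR3C1*, the glucocorticoid receptor gene, rose from 7.11 and 6.91 CPM in the controls to 18.1 to 30.5 CPM with *SMARCA4* siRNAs and 13.7 to 25.6 CPM with *SMARCA1* siRNAs. Of 10 further glucocorticoid response genes, 6 were called higher and the other 4 were not called with *SMARCA4* siRNAs (60% higher, beside 22.8% of all genes), and 7 were called higher and 1 lower with *SMARCA1* siRNAs (70% and 10%, beside 23.8% and 23.0% of all genes), among them *CEBPD* at 1.58 ± 0.13 and 1.51 ± 0.13. With *SMARCA4* siRNA B against siRNA A, *CEBPD* was at -1.25 ± 0.14, *KLF9* at -0.84 ± 0.18 and *ERRFI1* at -0.75 ± 0.16 (adjusted p = 0.00296, 0.0253 and 0.0254, edgeR). The other genes of this list were not called between these siRNAs, where 6.20% of all genes were. The part of the glucocorticoid response genes' change in the *FKBP5* values was not tested.

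*NDRG1* (ENSG00000104419, chromosome 8, 133237175 to 133302022, minus strand) encodes a stress-responsive cytoplasmic protein induced by androgen and by low oxygen. It was 2288 and 2208 CPM in the controls, 3559 and 3856 CPM with *SMARCA4* siRNA A, 2799 and 2608 CPM with siRNA B, 2269 and 2110 CPM with *SMARCA1* siRNA A, and 2041 and 1951 CPM with siRNA C. Every *SMARCA4* knockdown library was above control, those of siRNA A furthest, and the *SMARCA1* knockdown libraries overlapped control. The difference from control was 0.49 ± 0.09 with *SMARCA4* and -0.10 ± 0.09 with *SMARCA1* siRNAs, and the direct difference was 0.60 (95% interval 0.43 to 0.76, adjusted p = 0.000337, edgeR's quasi-likelihood test, Benjamini-Hochberg adjusted). Of 14 tested hypoxia genes other than *NDRG1*, 4 rose and 8 fell with *SMARCA4* siRNAs (28.6% and 57.1%, beside 22.8% and 22.3% of all genes), and 4 rose and 6 fell with *SMARCA1* siRNAs (28.6% and 42.9%, beside 23.8% and 23.0% of all genes). With *SMARCA4* siRNAs *LDHA*, the lactate dehydrogenase of glycolysis, fell by 1.69 ± 0.16 (adjusted p = 3.61e-05, edgeR) and *ADM*, adrenomedullin, rose by 1.79 ± 0.23 (adjusted p = 0.000215, edgeR). *NDRG1* shares 704 of 13356 50-base stretches (5.27%) with ENSG00000289316. *EEPD1* (r = 0.977), *NCALD* (r = 0.9746) and *GAB2* (r = 0.961) were closest to *NDRG1* over the 10 libraries, and *GAB2*, a signalling adaptor, had mean levels of 3.96 CPM in control, 12.1 CPM with *SMARCA4* siRNAs and 4.198 CPM with *SMARCA1* siRNAs.

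In the direct contrast, which sets no control library against a knockdown, 6 of the 10 members were called higher in *SMARCA4* than in *SMARCA1* knockdown, where 16.3% of all tested genes were, and 0 were called lower by edgeR, where 19.1% were. The 6 were *SLC45A3*, *TRPM8*, *KLK4*, *TMPRSS2*, *NDRG1* and *KLK3*. Since members higher with *SMARCA4* siRNAs were sought from the same libraries, the count of 6 is no independent evidence about them as a group. DESeq2 also called 6 of the 10 in this contrast. At an unadjusted p below 0.05 edgeR had 0 members lower. *FOXA1*, a pioneer factor of prostate epithelium, was 0.43 ± 0.08 higher in *SMARCA4* than in *SMARCA1* knockdown (adjusted p = 0.00345, edgeR). Of the 30 interferon response genes, 3 were called higher and 4 lower in this contrast.

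**Figure D3:**
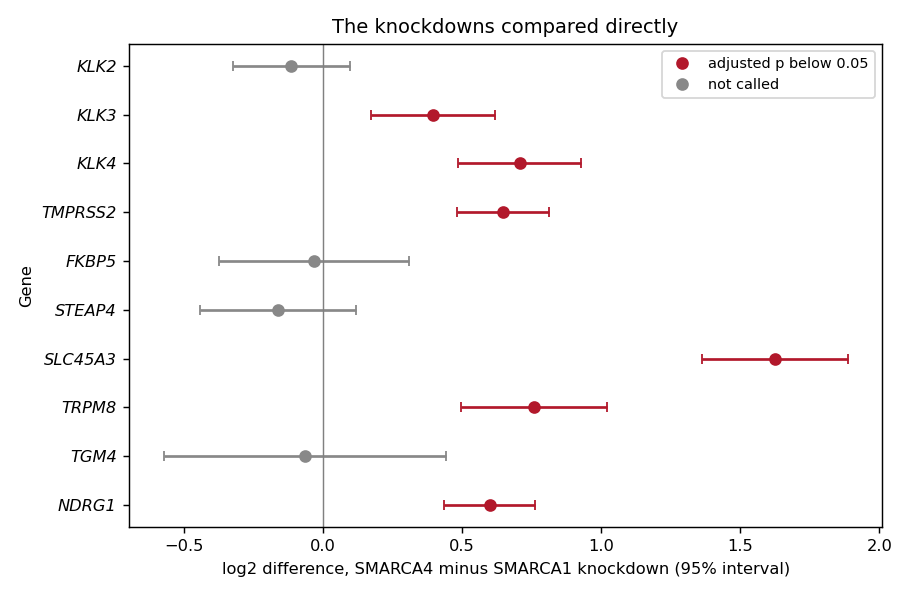
Log2 difference between *SMARCA4* and *SMARCA1* knockdown (horizontal axis, n = 4 libraries each) with its 95% interval for each gene; red marks an adjusted p below 0.05 in edgeR's quasi-likelihood test. The 6 called genes all lie to the right of 0, from 0.40 (*KLK3*) to 1.62 (*SLC45A3*), and the intervals of *KLK2*, *FKBP5*, *STEAP4* and *TGM4* include 0.

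The siRNAs against the same gene were then compared. *SMARCA4* siRNA B left less *SMARCA4* than siRNA A (log2 -0.60 ± 0.15, adjusted p = 0.0485, edgeR's quasi-likelihood test, Benjamini-Hochberg adjusted). Between them 6.20% of all genes were called, and of the members *KLK2* was 0.53 ± 0.13 higher (adjusted p = 0.0440) and *NDRG1* lower by -0.46 ± 0.10 (adjusted p = 0.0327) with siRNA B. *STEAP4* (-0.69 ± 0.18, adjusted p = 0.0503) and *KLK3* (0.49 ± 0.14, adjusted p = 0.0682) fell just outside. The count of 2 members depended on single libraries: it was 4 without either *SMARCA1* siRNA A library, 1 without *SMARCA4* siRNA A replicate 1, and 0 without any 1 of *SMARCA4* siRNA A replicate 2, either *SMARCA4* siRNA B, either *SMARCA1* siRNA C and either control library. Between *SMARCA1* siRNA C and siRNA A, 0.0118% of all genes and 0 of the members were called by edgeR and 0 by DESeq2, with 0 members at an unadjusted p below 0.05 in edgeR. The 2 *SMARCA1* siRNA A libraries differed from each other more than any other pair of replicates, with a median absolute log2 difference of 0.32 over genes against 0.09 to 0.19 in the other pairs, and the intervals for the members reached up to 0.84 in this contrast (*TGM4*).

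Beyond the members, 94 genes of a textbook androgen response list were tested, chosen with earlier results of these data known. With *SMARCA4* siRNAs 39 were called higher and 13 lower (41.5% and 13.8%, beside 22.8% and 22.3% of all genes), and their median log2 fold change was 0.23 against 0.00 for all genes. With *SMARCA1* siRNAs 38 were called higher and 19 lower (40.4% and 20.2%, beside 23.8% and 23.0% of all genes), with a median of 0.14. The genes that rose most were *B2M* and *KRT19*, at 2.94 ± 0.36 and 2.41 ± 0.42 with *SMARCA4* and 3.29 ± 0.36 and 3.39 ± 0.44 with *SMARCA1* siRNAs. *B2M* encodes the MHC class I light chain, which interferon also induces, and *KRT19* encodes a simple epithelial keratin. *CCND3*, a G1 cyclin, rose by 1.73 ± 0.19 with *SMARCA4* siRNAs. Lower genes included *SCD*, a fatty acid desaturase, which fell by 1.11 ± 0.13 with *SMARCA4* siRNAs, and *ALDH1A3*, a retinaldehyde dehydrogenase, which fell by 1.40 ± 0.13 with *SMARCA1* siRNAs. All of these passed edgeR's quasi-likelihood test at an adjusted p below 0.05. Without control replicate 2 the count of higher genes with *SMARCA1* siRNAs was 24. The count of lower genes with *SMARCA4* siRNAs was 6 without control replicate 1 and 7 without control replicate 2, and that with *SMARCA1* siRNAs was 8 without control replicate 1.

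Other lists divided in the same contrasts. Of 7 genes known to be repressed by androgen, 2 were called lower and 5 were not called with *SMARCA4* siRNAs (28.6% lower, near the 22.3% of all genes), and 1 was called higher and 3 lower with *SMARCA1* siRNAs (14.3% and 42.9%, beside 23.8% and 23.0%); *UGT2B17*, which conjugates androgens, fell by 1.67 ± 0.31 and by 1.33 ± 0.31. Of 14 tested prostate secretory and lineage products, 6 rose and 1 fell with *SMARCA4* siRNAs (42.9% and 7.14%, beside 22.8% and 22.3% of all genes), and 6 rose and 5 fell with *SMARCA1* siRNAs (42.9% and 35.7%, beside 23.8% and 23.0% of all genes). *FOLH1*, which encodes prostate-specific membrane antigen, fell with both (254 and 249 CPM in the controls, 94.9 to 209 CPM with *SMARCA4* and 64.5 to 84.8 CPM with *SMARCA1* siRNAs). *ACP3*, prostatic acid phosphatase, fell with *SMARCA1* siRNAs (1389 and 1322 CPM in the controls, 367 to 683 CPM), and *MSMB*, a secreted microseminoprotein, rose by 3.18 ± 0.67 and 3.05 ± 0.67 from 0.418 and 0.334 CPM. Basal keratins also rose: *KRT14* by 4.40 ± 0.24 and 4.23 ± 0.23, with the summed level of 4 basal markers at 3.26 to 3.72 CPM in the controls, 38.3 to 114 CPM with *SMARCA4* and 43.6 to 97.8 CPM with *SMARCA1* siRNAs. Of these 4, *KRT14* and *KRT15* alone passed the filter on low counts. The part of the basal keratin rise in the members' values was not tested. In bulk RNA, fewer cells expressing a gene and less RNA per cell cannot be told apart.

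**Figure D4:**
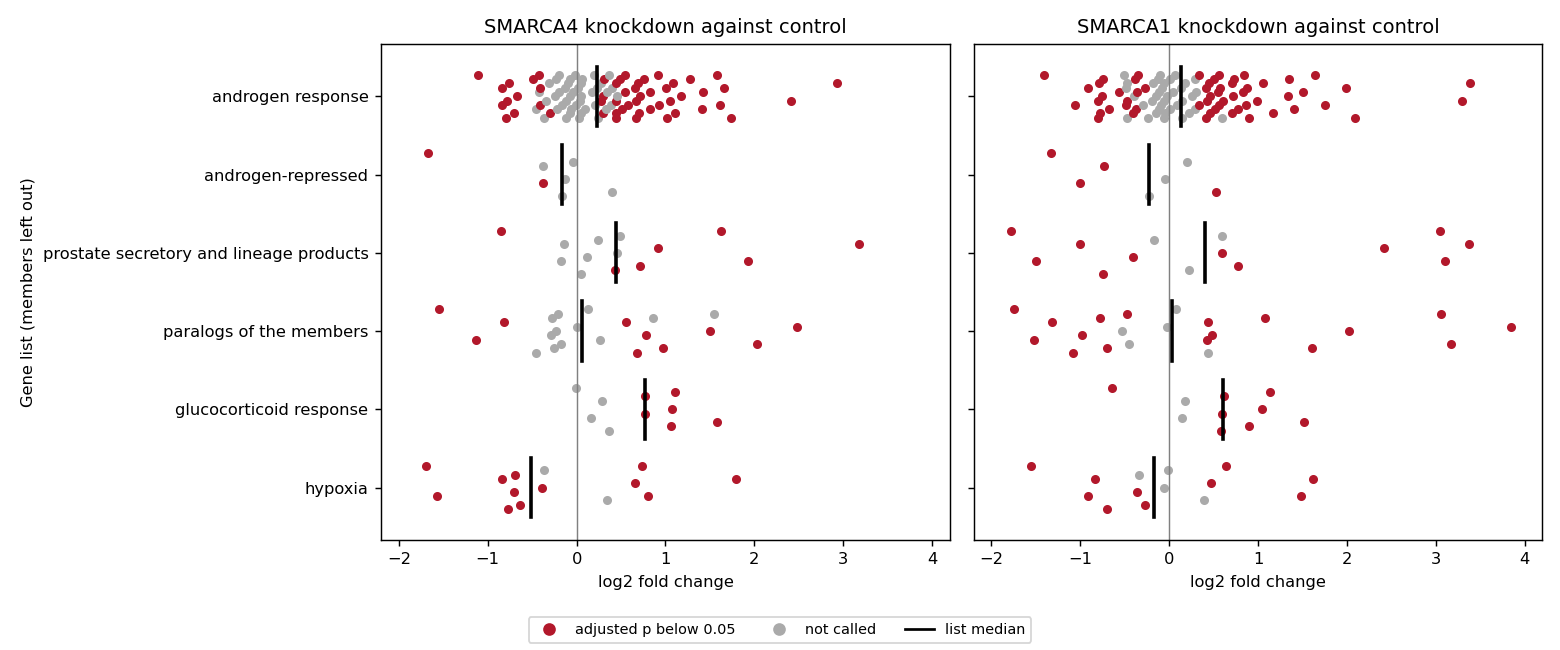
Log2 fold change against control (horizontal axis) of the genes of 6 lists without the 10 members (vertical axis; vertical spread within a list only separates points), for *SMARCA4* (left) and *SMARCA1* knockdown (right); red marks an adjusted p below 0.05 in edgeR's quasi-likelihood test, grey the rest, and black bars the list medians. The androgen response list has its median at 0.23 on the left and 0.14 on the right, with genes on both sides of 0.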

How the data were processed

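RNA-seq of VCaP cells 72 h after siRNA transfection was used (5 groups, 2 libraries each). The deposited files hold raw counts per gene and library; per the study's methods and the submitters' processing notes, the authors aligned paired-end strand-specific reads with HISAT2 (2.1.0) to GRCh38 and counted them on GENCODE genes with featureCounts (1.5.2). The GENCODE release and the strand setting are not given in the sources used here. Groups were taken from the labels. Counts from all 10 libraries were filtered (filterByExpr, minimum count 10, total 15), TMM-normalized (factors 0.963 to 1.03) and fitted with edgeR (4.0.16) quasi-likelihood tests in 1 model with a term per siRNA; a knockdown is the mean of its siRNAs. P-values were Benjamini-Hochberg adjusted over 16899 genes, threshold 0.05, and intervals are 95%. The code was tested on simulated data. RPKM used the exon length in the files. The members and gene lists were chosen with earlier results of these data known. Named were all members and, per list, the 3 called genes with the largest rise and fall at a mean of 1 CPM or more, of which some are printed. Other genes printed beside a member (its relatives, *MX1*, the regulators) come from the fixed lists and were picked after their values were seen. Correlated genes are the 3 highest Pearson r. Fits with DESeq2 (1.42.0), other normalizations and filters, a replicate block and left-out libraries served as alternatives. Sequence came from RefSeq tables. Results for some listed genes are not reported here.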

Additional observations from a re-analysis of the deposited data

Results flagged for a closer look

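Members whose response differed between the targets in a test of the difference itself were *SLC45A3* (log2 difference 1.62, *SMARCA4* minus *SMARCA1* knockdown), *TRPM8* (0.76), *KLK4* (0.71), *TMPRSS2* (0.65), *NDRG1* (0.60) and *KLK3* (0.40), each from 4 libraries per target by edgeR's quasi-likelihood test. All 4 *SMARCA4* knockdown libraries lay above all 4 *SMARCA1* knockdown libraries for the first 5, and the libraries overlapped for *KLK3*. The share of all genes that separate this way was not counted. The calls in this contrast are no independent evidence, since the members were chosen from the same libraries.

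Members that differed between the siRNAs against *SMARCA4* were *KLK2* (0.53, siRNA B minus siRNA A) and *NDRG1* (-0.46), from 2 libraries per siRNA. Among the 4 libraries of each target, no member had a single library beyond Dixon's 95% critical value.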

How the results depend on the processing

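Each left-out library left 1 lone library in its siRNA group, assumed to vary like the others. Of 870 refits of single members, 770 kept their direction and side of the threshold, 62 changed the call and 38 changed sign, all of the last among differences not called. Across the left-out libraries those with a change of sign ranged as follows: for *SMARCA1* knockdown against control, *KLK3* from -0.11 to 0.11; for *SMARCA4* against *SMARCA1* knockdown, *FKBP5* from -0.22 to 0.13, *STEAP4* from -0.29 to 0.019 and *TGM4* from -0.41 to 0.17. For *SMARCA4* siRNA B against A they were *KLK4* from -0.24 to 0.12, *FKBP5* from -0.14 to 0.56, *SLC45A3* from -0.29 to 0.17 and *TGM4* from -0.14 to 1.03. For *SMARCA1* siRNA C against A they were *KLK2* from -0.043 to 0.31, *KLK3* from -0.26 to 0.14, *STEAP4* from -0.22 to 0.40, *SLC45A3* from -0.049 to 0.037, *TRPM8* from -0.17 to 0.30 and *TGM4* from -0.045 to 0.24. Other sign changes were *KLK3* with *SMARCA1* siRNA A alone (0.020) and *SLC45A3* between the *SMARCA1* siRNAs under upper quartile normalization (-0.050), no filter on low counts (-0.014) and a filter of 1 CPM in 2 libraries (-0.019). The cause was not tested.

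Left-out libraries moved the androgen response counts from 24 to 43 higher with *SMARCA1*, from 6 to 19 lower with *SMARCA4* and from 8 to 28 lower with *SMARCA1* siRNAs, the members lower with *SMARCA1* siRNAs from 2 to 4, and the members called between the *SMARCA4* siRNAs from 0 to 4. *SMARCA4* siRNA A alone gave 8 androgen response genes lower, and between the *SMARCA4* siRNAs DESeq2 called 4 members, as did the fit with no filter on low counts. Against control, *KLK3* was 0.15 with *SMARCA4* siRNA A alone, and with siRNA B alone *STEAP4* was 0.47 and *NDRG1* 0.27.

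Same-numbered libraries deviated together in some pairs of groups and not in others (r from -0.10 to 0.36 over 10 pairs of groups, 3 above 0.1), so pairing by number was not assumed. With the replicate number as a block, 38 androgen response genes were higher and 13 lower with *SMARCA4* siRNAs and 38 higher and 20 lower with *SMARCA1* siRNAs; *TRPM8* was 0.35 above control with *SMARCA4* siRNAs and counted as called, and the member counts were 8 higher and 2 lower with *SMARCA4* and 2 higher and 4 lower with *SMARCA1* siRNAs, 6 between the targets, 2 between the *SMARCA4* and 0 between the *SMARCA1* siRNAs, where edgeR had 0 at an unadjusted p below 0.05 without the block. With 2 libraries per siRNA, small differences are beyond what these data can show.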
